A study of Mus musculus with 12 samples.

Results

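The expression of 10 genes of the tumor necrosis factor (TNF) system was followed in mouse peritoneal macrophages. They were picked by name from the 24279 gene rows of 1 expression table, and all 10 were present and passed the filter on low values (a level of at least 1 TPM in at least 3 libraries, which left 12594 genes). They are 4 ligands (Tnf, Tnfsf9, Tnfsf10, Tnfsf13b), 3 receptors (Tnfrsf1a, Tnfrsf1b, Fas) and 3 genes of TNF-induced or feedback proteins (Tnfaip2, Tnfaip3, Tnip1). The groups were Pim1-/- cells given oxidized low-density lipoprotein (oxLDL), wild-type (WT) cells given oxLDL, Pim1-/- cells given PBS and WT cells given PBS, with 3 libraries each. OxLDL was given at 20 µg/mL for 8 h, and cultures were kept in RPMI with fetal bovine serum. Pim1 is a serine/threonine kinase induced by cytokine signals, and scavenger receptors on macrophages bind and internalize oxLDL. The comparisons ask what oxLDL does to these transcripts in each genotype, and what the loss of Pim1 does to them with and without oxLDL. The labels give neither the strain, age or sex of the mice, nor which part of Pim1 was removed. They also do not say whether replicate libraries are separate animals, so p-values speak only of the spread among these libraries, and that spread may be technical.

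TNF is made by activated macrophages as a membrane protein and shed by the protease ADAM17. It binds a receptor with a death domain, TNFR1, and a receptor without one, TNFR2, and TRAF and RIPK1 proteins carry the signal to NF-kB and MAP kinases or, when survival signals fail, to caspase-8. NF-kB in turn switches on brakes on the same pathway, among them A20 and its partner ABIN-1, and RNA-binding proteins shorten the life of the Tnf mRNA.

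Levels are in TPM, a transcript abundance corrected for transcript length and scaled to 1 total in every library, so genes can be set beside each other. TPM keeps no sequencing depth, and the depth behind each value is unknown. Changes are differences of log2(TPM + 1) with the standard error (SE) of a limma model over all 12 libraries, which understates changes of genes at low TPM, and calls were made at a limma p under 0.05 after Benjamini-Hochberg adjustment over all tested genes. All 7 macrophage markers were above 0 in every library, with sums of 12176 to 24461 TPM, of which Lyz2 alone held 8983 to 21127 TPM. WT PBS 3 stood apart, reaching a Spearman correlation of at most 0.837 with another library, and had 12867 genes listed at 0 and 469 TPM of T and NK cell markers, against 4.23 to 17.6 TPM in the other 11 libraries. Of that sum Nkg7 alone held 333 TPM, and 4 of the 9 markers in the table were at 0. The B cell and mast cell marker sums were also highest in WT PBS 3, at 37.8 and 20.0 TPM. Pim1-/- PBS 2 was closest to WT PBS 1 (0.916), and WT oxLDL 2 to Pim1-/- oxLDL 1 (0.977). The median log2 change over all tested genes was -0.50 for oxLDL in Pim1-/- cells, -0.70 for oxLDL in WT cells, -0.16 for Pim1 loss in oxLDL and -0.41 for Pim1 loss in PBS, so a change of 0 lies above the typical gene. After each library was divided by its median ratio to the mean library (median scaling), these medians were -0.02, 0.15, 0.00 and 0.13 in the same order. Pim1 itself stood at 47.8, 13.6 and 12.3 TPM in Pim1-/- oxLDL and 365, 56.0 and 114 TPM in WT oxLDL, and at 13.9, 10.2 and 30.6 TPM in Pim1-/- PBS and 93.1, 68.5 and 77.6 TPM in WT PBS, so within each treatment every knockout library lay below every WT library.

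Upstream sequences are shown for Tnf, whose level changed most, for Tnip1 and Tnfaip3, the feedback genes that hold the NF-kB consensus, and for Tnfrsf1b, whose call with oxLDL differed between the genotypes. RefSeq windows (GRCm38.p6) of the 250 bases before a start site matched 9 of the 10 members, in 11 windows. No window was found for Tnfsf9, so its upstream sequence was not searched. Capitals mark matches, on either strand, to the NF-kB consensus, to GAAA repeated after any 2 bases (as bound by interferon regulatory factors), to TTCNNNGAA (as bound by STAT proteins) and to TATAAA; no match overlapped one of another motif. The Tnf window is chr17:35202008-35202257, the Tnip1 window chr11:54962941-54963190 and the Tnfrsf1b window chr4:145246871-145247120, all on the minus strand and written 5′ to 3′.
Tnf: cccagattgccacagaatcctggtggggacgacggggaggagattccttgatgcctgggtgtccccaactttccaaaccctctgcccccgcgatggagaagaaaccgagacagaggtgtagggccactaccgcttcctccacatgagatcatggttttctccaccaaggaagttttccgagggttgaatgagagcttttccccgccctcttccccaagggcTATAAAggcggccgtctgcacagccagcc
Tnip1: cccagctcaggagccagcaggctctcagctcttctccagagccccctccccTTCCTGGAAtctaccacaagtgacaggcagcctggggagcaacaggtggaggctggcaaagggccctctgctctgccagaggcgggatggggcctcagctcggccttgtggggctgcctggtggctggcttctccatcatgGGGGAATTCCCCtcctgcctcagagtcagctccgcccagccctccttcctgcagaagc
Tnfrsf1b: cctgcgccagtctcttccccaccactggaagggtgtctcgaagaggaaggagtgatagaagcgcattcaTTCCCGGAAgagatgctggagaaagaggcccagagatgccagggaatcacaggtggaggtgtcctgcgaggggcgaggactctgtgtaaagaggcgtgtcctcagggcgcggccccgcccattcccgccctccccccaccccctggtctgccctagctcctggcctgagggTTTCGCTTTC
In Tnfaip3 only the matches are shown, with 10 bases on each side (chr10:19015516-19015545 and chr10:19015403-19015432, minus strand), because GENCODE places most of its window inside the gene.
Tnfaip3 upstream match: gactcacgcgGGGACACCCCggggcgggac
Tnfaip3 match at the start site: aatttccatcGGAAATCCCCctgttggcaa
The NF-kB consensus was matched in Tnip1, by 3 overlapping matches over positions -58 to -47 from the start site, and in Tnfaip3, at -125 to -116 and -12 to -3, and in no other of the 9 members. Among all 32841 RefSeq windows 3.9% hold it. The GAAA repeat was matched in Tnfrsf1b and Tnfsf13b (2.98% of windows), and TTCNNNGAA in Tnfrsf1a, Tnfrsf1b, Fas and Tnip1 (7.02%). TATAAA was matched in Tnf, at -29 to -24, and in Tnfaip3 (12.4%). The Tnfaip2 window held no match to any of them, which says only that these letters are not there. Some windows reach into the transcribed gene as GENCODE M21 draws it, with 192 of 250 bases inside it for Tnfaip2, all 250 for Tnfrsf1a, 247 for the Tnfaip3 window with the matches and 250 for its other window, 49 for Tnfsf10 and 166 for the Tnfsf13b window that holds the GAAA match.

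The genes lie on 9 chromosomes, with Tnf (chr17:35199381-35202007, minus strand) and Tnfsf9 (chr17:57105325-57107757, plus strand) both on chromosome 17. In GENCODE M21 a gene of the other strand overlaps Tnfsf9 (Gm11110), Tnfsf13b (Gm44789), Tnip1 (Gm12230) and Tnfaip2 (Gm40578; Tnfaip2 itself lies at chr12:111442469-111455018 on the plus strand), and Gm27818 overlaps Fas on its own strand. Whether reads were counted by strand is not given in the sources used here, so reads where such genes overlap cannot be told apart.

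OxLDL raised most of the 10 genes in both genotypes. In Pim1-/- cells 7 rose (Tnf, Tnfsf9, Tnfsf10, Tnfrsf1b, Fas, Tnfaip3 and Tnip1) and none fell, where 4.45% of all tested genes rose and 7.8% fell. In WT cells 6 rose, these without Tnfrsf1b, and none fell, where 5.83% rose and 27% fell. All 7 had every oxLDL library above every PBS library in Pim1-/- cells and also in WT cells, a separation seen upward in 8.54% and 7.95% of tested genes. The median change of the 10 was 2.13 in Pim1-/- cells and 2.55 in WT cells, against all-gene medians of -0.50 and -0.70. After median scaling 7 rose in Pim1-/- cells (7.37% of tested genes) and 9 in WT cells (13.4%), all but Tnfsf13b. In such bulk samples fewer cells of a type and less RNA per cell cannot be told apart.

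The order of the levels changed with it. In Pim1-/- oxLDL Tnf was highest, then Tnfrsf1b, Tnip1, Tnfsf9, Tnfrsf1a, Tnfaip3, Tnfaip2, Fas, Tnfsf10 and Tnfsf13b, where the neighbours from Tnfsf9 to Tnfaip2 overlapped in their libraries and the others did not. In WT oxLDL Tnf was also first and Tnfrsf1b next, but neighbours overlapped from Tnf down to Tnfsf9, as did Fas and Tnfsf10. In Pim1-/- PBS the order was Tnfrsf1b, Tnfrsf1a, Tnfaip2, Tnip1, Tnfaip3, Tnf, Fas, Tnfsf9, Tnfsf13b and Tnfsf10, with overlap between Tnfrsf1b and Tnfrsf1a, Tnfaip2 and Tnip1, Tnf and Fas, and Tnfsf13b and Tnfsf10. In WT PBS Tnfrsf1b and Tnfaip2 led, Tnfrsf1a, Tnip1, Tnfaip3 and Tnf followed, none overlapping its neighbour, and Fas, Tnfsf10, Tnfsf13b and Tnfsf9 overlapped at the low end.

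Among the ligands, Tnf itself moved most. It stood at 1934, 2106 and 2096 TPM in Pim1-/- oxLDL, against 12.1, 17.1 and 10.7 TPM in Pim1-/- PBS. In WT cells it stood at 2225, 2044 and 3226 TPM with oxLDL, against 9.70, 9.24 and 12.3 TPM with PBS. The oxLDL and PBS libraries were far apart in both genotypes, and the ratio of mean TPM was 154 in Pim1-/- and 240.01 in WT cells. The log2 change was 7.18 (SE 0.345) in Pim1-/- cells (limma adjusted p = 6.71e-09) and 7.76 (SE 0.345) in WT cells (limma adjusted p = 3.09e-09). In each of the 6 oxLDL libraries Tnf stood above the other 9 genes.

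Tnfsf9 encodes the ligand of the costimulatory receptor 4-1BB. It stood at 162, 214 and 212 TPM in Pim1-/- oxLDL and 5.64, 3.48 and 4.13 TPM in Pim1-/- PBS. WT libraries held 184, 174 and 150 TPM with oxLDL, against 2.31 and 1.01 TPM with PBS, and the gene was listed at 0 in WT PBS 3. It rose by 5.19 (SE 0.425) in Pim1-/- cells (limma adjusted p = 2.12e-06) and by 6.49 (SE 0.425) in WT cells (limma adjusted p = 1.45e-07), and no oxLDL library came near a PBS library. Its receptor gene Tnfrsf9 stayed low, at 1.16 to 2.43 TPM over the 6 oxLDL libraries and 0 to 0.382 TPM over the 6 PBS libraries. Tnfrsf9 was called as higher, by 1.37 (limma adjusted p = 0.0136) in Pim1-/- and 1.13 (limma adjusted p = 0.018) in WT cells.

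Tnfsf10 encodes TRAIL, a ligand that can trigger death of cells with its receptors. It stood at 22.2, 14.7 and 18.4 TPM in Pim1-/- oxLDL and 2.68, 1.82 and 0.771 TPM in Pim1-/- PBS, a rise of 2.86 (SE 0.466, limma adjusted p = 0.00101). In WT cells the values were 21.2, 27.5 and 57.4 TPM with oxLDL and 1.73, 2.48 and 4.71 TPM with PBS, a rise of 3.14 (SE 0.466, limma adjusted p = 0.000305). OxLDL and PBS libraries did not overlap in either genotype. Tnfsf13b, which encodes the B cell survival factor BAFF, was the lowest of the 10 with oxLDL. It stood at 3.10, 2.14 and 3.09 TPM in Pim1-/- oxLDL, 0.805, 2.31 and 4.07 TPM in WT oxLDL, 2.38, 2.50 and 2.74 TPM in Pim1-/- PBS and 2.72, 1.53 and 0 TPM in WT PBS. These groups overlapped, and the changes of 0.08 (SE 0.498) in Pim1-/- and 0.56 (SE 0.498) in WT cells did not pass (limma adjusted p = 0.928 and 0.405). After median scaling neither passed (limma adjusted p = 0.503 and 0.0866), though all Pim1-/- oxLDL libraries then lay above all Pim1-/- PBS libraries. How many of all tested genes separate in this way after scaling was not counted.

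**Figure D1:**
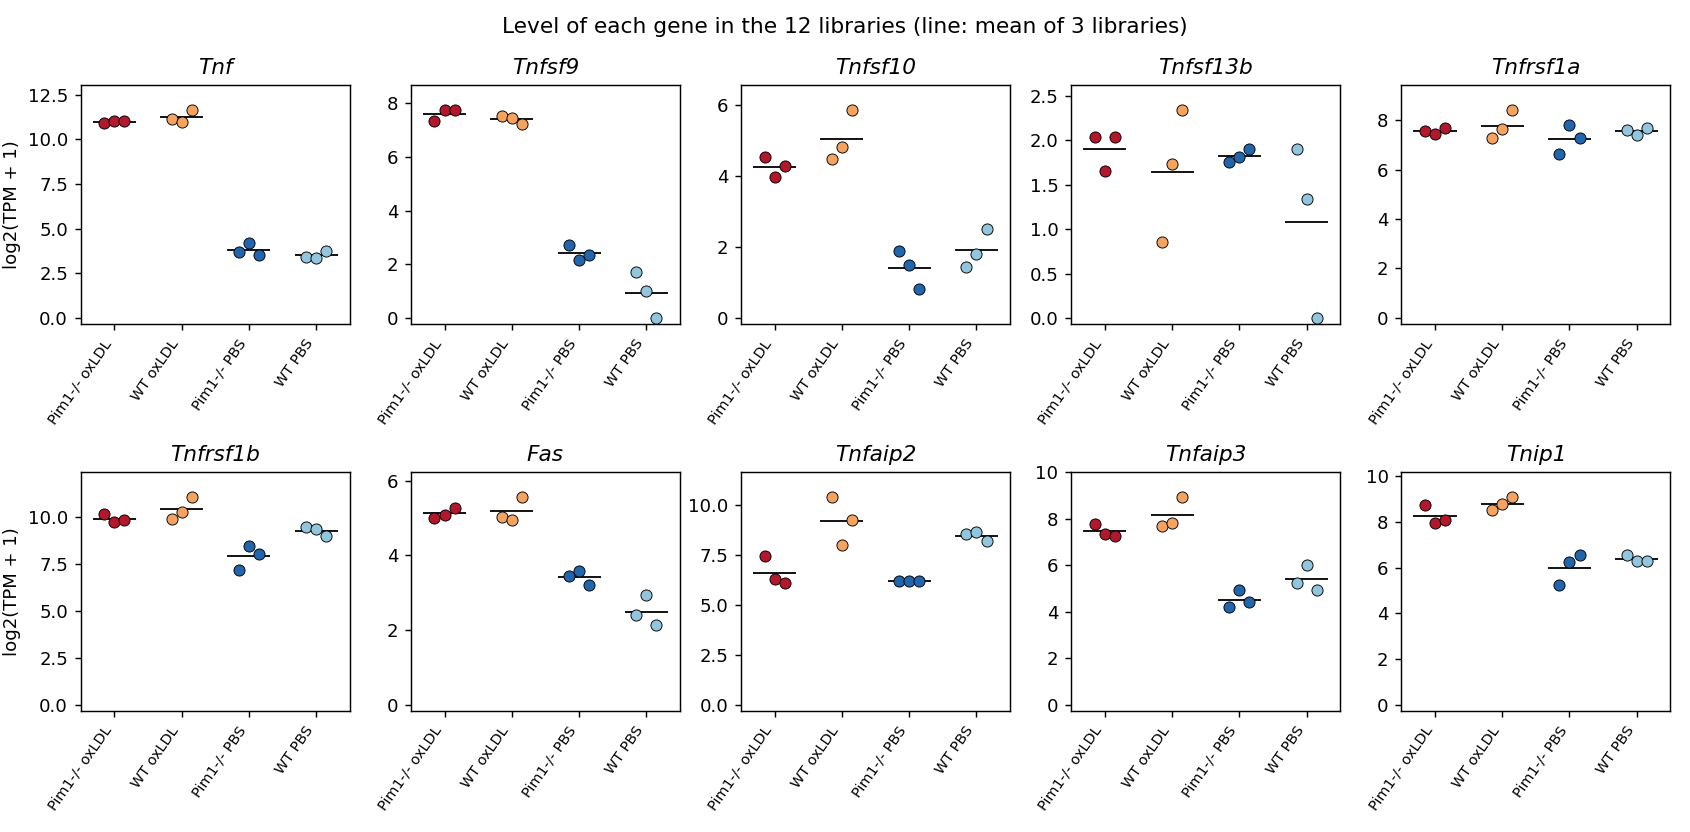
Level of each of the 10 genes as log2(TPM + 1) (vertical axis, a scale of its own in each panel) in the 12 libraries, by group; points are libraries and lines are means of 3 libraries. Tnf, Tnfsf9, Tnfsf10, Fas, Tnfaip3 and Tnip1 lie higher in oxLDL than in PBS in both genotypes, and Tnfaip2 lies lower in Pim1-/- than in WT within each treatment.

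The TNF receptors did not move alike. Tnfrsf1b, which encodes TNFR2, stood at 1161, 861 and 941 TPM in Pim1-/- oxLDL and 147, 359 and 268 TPM in Pim1-/- PBS, a rise of 2.01 (SE 0.439, limma adjusted p = 0.0082). In WT cells it stood at 957, 1228 and 2203 TPM with oxLDL and 706, 670.1 and 521 TPM with PBS. Those WT libraries did not overlap either, but the change of 1.13 (SE 0.439) was not called (limma adjusted p = 0.0612). Rescaling without the ribosomal RNA rows called it (1.28, limma adjusted p = 0.0269), as did median scaling (2.17, limma adjusted p = 0.000577). The difference between the genotypes' responses, 0.88 (SE 0.621), was not called (limma adjusted p = 0.986), so Tnfrsf1b is not shown to respond differently.

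In TPM as deposited, Tnfrsf1a, which encodes the death-domain receptor TNFR1, held similar levels in all groups. It stood at 186, 172 and 207 TPM in Pim1-/- oxLDL, 155, 198 and 340 TPM in WT oxLDL, 96.9, 220.3 and 154 TPM in Pim1-/- PBS and 195, 168 and 204 TPM in WT PBS. OxLDL and PBS libraries overlapped, and the changes were 0.33 (SE 0.402) in Pim1-/- and 0.21 (SE 0.402) in WT cells (limma adjusted p = 0.611 and 0.712). After median scaling they were 0.94 (limma adjusted p = 0.0698) and 1.25 (limma adjusted p = 0.0125), so whether Tnfrsf1a counts as raised in WT cells turns on the scaling. Its scaled oxLDL libraries all lay above its scaled PBS libraries in each genotype. Here too the share of tested genes so separated after scaling was not counted. Fas, the death receptor for Fas ligand, stood at 31.3, 33.1 and 37.8 TPM in Pim1-/- oxLDL and 9.86, 11.0 and 8.32 TPM in Pim1-/- PBS, a rise of 1.71 (SE 0.363, limma adjusted p = 0.00677). In WT cells it stood at 31.6, 30.2 and 46.7 TPM with oxLDL and 4.26, 6.72 and 3.36 TPM with PBS, a rise of 2.70 (SE 0.363, limma adjusted p = 0.000129). The oxLDL levels of the genotypes overlapped while the PBS levels did not, and the responses differed by -0.99 (SE 0.513), which was not called (limma adjusted p = 0.986). Fasl, the gene of its ligand, was at 0 to 0.317 TPM in 11 libraries and at 10.2 TPM in WT PBS 3, the library with the highest sum of T and NK cell markers.

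The feedback genes Tnfaip3 and Tnip1 rose together. Tnfaip3 encodes A20, a ubiquitin-editing enzyme that restrains NF-kB signalling. It stood at 216, 163 and 152 TPM in Pim1-/- oxLDL and 17.6, 29.9 and 20.2 TPM in Pim1-/- PBS, a rise of 2.93 (SE 0.429, limma adjusted p = 0.000419). WT libraries held 206, 228 and 495 TPM with oxLDL and 36.6, 63.1 and 29.8 TPM with PBS, a rise of 2.77 (SE 0.429, limma adjusted p = 0.000417). Tnip1 encodes ABIN-1, which binds ubiquitin chains and works with A20. It stood at 425, 248 and 271 TPM in Pim1-/- oxLDL and 36.6, 74.4 and 92.8 TPM in Pim1-/- PBS, a rise of 2.25 (SE 0.405, limma adjusted p = 0.00213). In WT cells it stood at 368, 436 and 554 TPM with oxLDL and 93.2, 78.7 and 78.2 TPM with PBS, a rise of 2.41 (SE 0.405, limma adjusted p = 0.000767). Both genes thus had all oxLDL libraries above all PBS libraries in each genotype. Across the 12 libraries Tnip1 was the member most like Tnfaip3 (Pearson's r = 0.956 of log2(TPM + 1)). Other pairs of members were more alike, such as Tnfsf9 with Tnf (0.974) and with Fas (0.970). The libraries fall into treatment groups, so such values of r mostly describe the treatment.

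**Figure D2:**
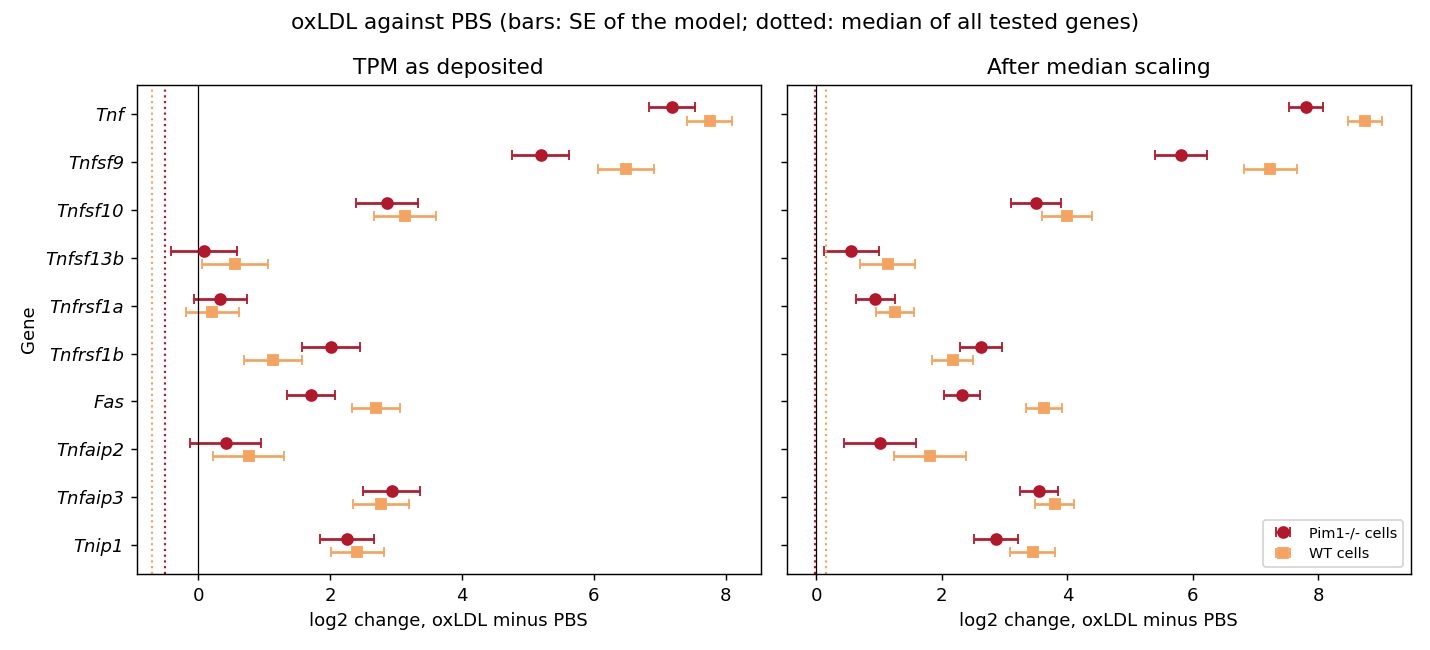
Log2 change of each gene with oxLDL against PBS (horizontal axis) in Pim1-/- cells (circles) and WT cells (squares), from TPM as deposited on the left and after median scaling on the right; bars are the SE of the model and dotted lines the median of all tested genes. Tnf and Tnfsf9 changed most in both genotypes, and Tnfsf13b, Tnfrsf1a and Tnfaip2 lie closest to 0 on the left.

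By the same measure over the 9102 genes that are not members and have a mean of at least 5 TPM, the genes most like Tnf over the 12 libraries were Nos2 (r = 0.999), the inducible nitric oxide synthase, Mir155hg (0.997), the host gene of a microRNA induced in inflammation, Tarm1 (0.996), Il1b (0.996), an inflammatory cytokine, and Zbp1 (0.994), a nucleic acid sensor. Among the members, the one most like Tnf was Tnfsf9 (0.974) and the one least like it was Tnfaip2 (0.211).

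Loss of Pim1 left most of the 10 genes without a call, and Tnfaip2 was the exception. Tnfaip2 is induced by TNF in endothelial cells, and its protein, also called M-Sec, takes part in forming membrane nanotubes between macrophages. With oxLDL it stood at 178, 77.2 and 67.4 TPM in Pim1-/- cells, against 1387, 254 and 620 TPM in WT cells. In PBS it stood at 73.9, 72.8 and 72.0 TPM in Pim1-/- cells, against 372, 405 and 296 TPM in WT cells. Every Pim1-/- library lay below every WT library, also across treatments, a separation seen downward in 0.802% of tested genes. Within oxLDL alone 13% of tested genes were separated downward, and within PBS alone 21.1%. After median scaling the separation across treatments no longer held, while that within each treatment did. The shares of tested genes separated within a treatment after scaling were not counted.

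The log2 difference of Tnfaip2 between Pim1-/- and WT cells was -2.62 (SE 0.54) in oxLDL and -2.27 (SE 0.54) in PBS, and the mean TPM in Pim1-/- cells was 0.143 and 0.204 of that in WT cells. Averaged over the treatments it was -2.44 (SE 0.382, limma adjusted p = 0.00704). It was the only member called in that average, where 8.21% of all tested genes were called lower and 2.94% higher. This averaged call held in every alternative tried, with limma adjusted p from 0.000548 to 0.0335. After median scaling 2 members were also called as higher in the average, Tnfsf9 (1.14, limma adjusted p = 0.0397) and Fas (0.81, limma adjusted p = 0.0364), where 6.73% of tested genes were called higher and 3.53% lower.

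In oxLDL alone no member was called (limma adjusted p of Tnfaip2 = 0.321). By limma 1 of 12594 genes (0.00794%) was called there and 1367 had an unadjusted p under 0.05, among which Tnfaip2 was the only member. Without WT oxLDL 2, the library close to Pim1-/- oxLDL 1, the Tnfaip2 difference was -3.24 (limma adjusted p = 0.0154). Without WT oxLDL 1, the library with 1387 TPM, it was -2.02 (limma adjusted p = 0.712), and over the alternatives its adjusted p ranged from 0.0096 to 0.97. In PBS alone Tnfaip2 was the only member called (limma adjusted p = 0.0336), where 4.06% of tested genes were called lower and 0.611% higher. That call ended under median scaling (-1.61, limma adjusted p = 0.122), and adjusted p ranged from 0.0132 to 0.122 over the alternatives. It also ended without WT PBS 1, WT PBS 2, Pim1-/- PBS 1 or Pim1-/- PBS 3, with limma adjusted p from 0.0788 to 0.115. The Tnfaip2 difference in these fits was -2.17 to -2.27. Calls among all genes went from 588 to 2, 2, 99 and 4 in the same order.

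OxLDL itself moved Tnfaip2 by 0.41 (SE 0.54) in Pim1-/- cells and 0.77 (SE 0.54) in WT cells, neither called (limma adjusted p = 0.639 and 0.29), and oxLDL and PBS libraries overlapped in both genotypes. After median scaling the change was 1.02 (limma adjusted p = 0.324) in Pim1-/- and 1.81 (limma adjusted p = 0.0425) in WT cells. Every oxLDL library then lay above every PBS library in each genotype. The share of tested genes separated upward after scaling was not counted. The responses differed by -0.35 (SE 0.763), which was not called (limma adjusted p = 0.986). The mesothelial and fibroblast markers, a list of 8 genes present in full, summed to 345 to 782 TPM in Pim1-/- oxLDL, 266 to 747 TPM in WT oxLDL, 481 to 1391 TPM in Pim1-/- PBS and 233 to 501 TPM in WT PBS, of which Col1a1 held the most in each library, and at most 2 were at 0 in a library. Neutrophil markers (6 of 7 in the table) summed to 59.5 to 154 TPM in Pim1-/- oxLDL, 29.0 to 77.3 TPM in WT oxLDL, 38.9 to 116 TPM in Pim1-/- PBS and 44.8 to 89.2 TPM in WT PBS. The sums of these 2 lists overlapped between the genotypes in each treatment. Those of B cell markers overlapped in PBS but not in oxLDL, at 11.8 to 14.4 TPM in Pim1-/- and 3.78 to 11.2 TPM in WT cells. Those of T and NK cell markers overlapped in oxLDL but not in PBS, at 5.57 to 8.49 TPM in Pim1-/- and 10.4 to 469 TPM in WT cells. The macrophage markers did not all overlap. In oxLDL, Adgre1 (F4/80) stood at 111 to 143 TPM in Pim1-/- and 180.2 to 821 TPM in WT cells, and Csf1r at 98.5 to 119 and 123 to 411 TPM. In PBS, Adgre1 stood at 63.9 to 245 TPM in Pim1-/- and 249 to 525 TPM in WT cells, and Csf1r at 155 to 402 and 494 to 777 TPM. Both were thus lower in every Pim1-/- library of a treatment than in every WT library of it. Itgam and Mertk were so in oxLDL. These values are TPM as deposited, where downward separation was seen in 13% of tested genes in oxLDL and 21.1% in PBS. Whether the markers separate after median scaling was not tested. Cd68 went the other way, at 2920 to 3839 TPM in Pim1-/- and 1195 to 2806 TPM in WT cells with oxLDL and at 2550.1 to 3733 and 967 to 2128 TPM with PBS. Cd14 did so in PBS, at 169.7 to 223 TPM in Pim1-/- and 45.7 to 124 TPM in WT cells. Upward separation was seen in 6.62% of tested genes in PBS, and its share in oxLDL is not given here. The part of these markers in the Tnfaip2 difference, and in the other differences between the genotypes, was not tested.

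**Figure D3:**
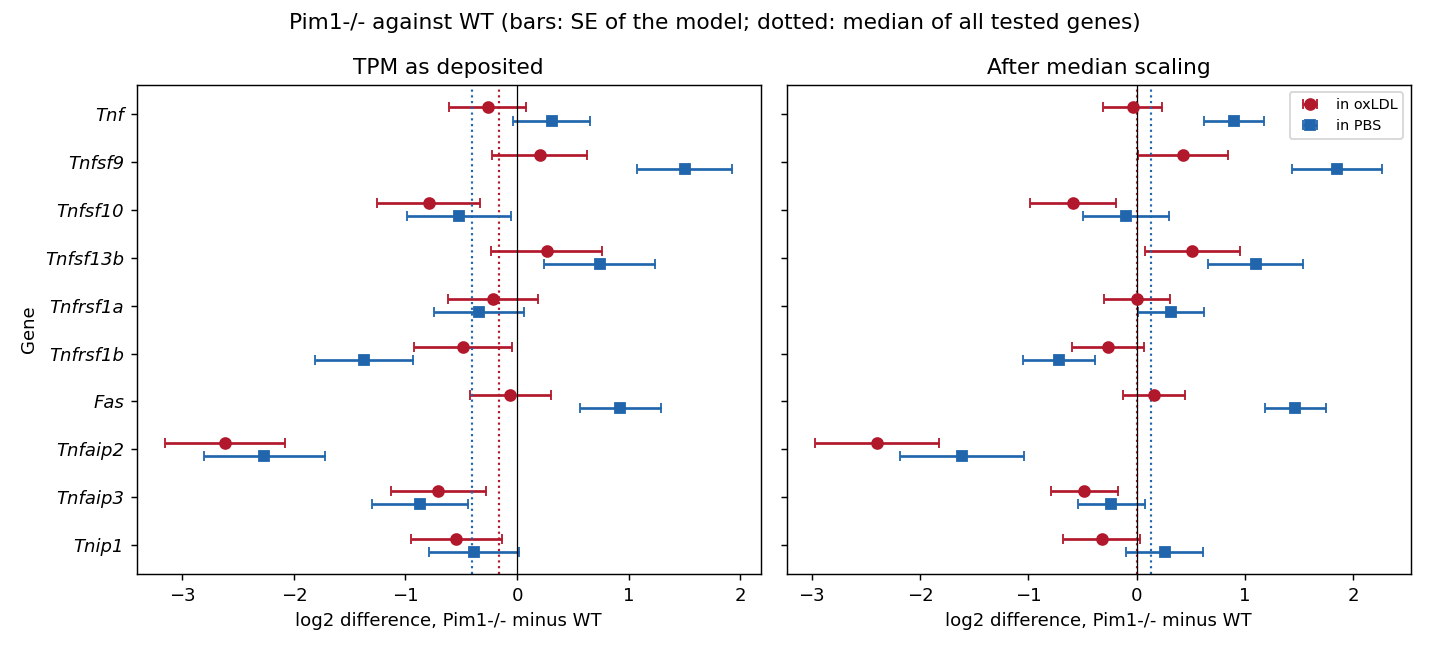
Log2 difference of each gene between Pim1-/- and WT cells (horizontal axis) in oxLDL (circles) and in PBS (squares), from TPM as deposited on the left and after median scaling on the right; bars are the SE of the model and dotted lines the median of all tested genes. Tnfaip2 is the lowest in both treatments on both sides, and Tnfsf9 and Fas are the highest in PBS.

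Tnfsf9, Fas and Tnfrsf1b also had PBS libraries that did not overlap between the genotypes, though none of the 3 was called. Tnfsf9 differed by 1.51 (SE 0.425, limma adjusted p = 0.0575) and Fas by 0.93 (SE 0.363, limma adjusted p = 0.125), both with the higher values in Pim1-/- PBS. Upward separation of this kind was seen in 6.62% of tested genes. Quantile normalization called both (limma adjusted p = 0.0403 for Tnfsf9 and 0.0332 for Fas). Tnfrsf1b differed by -1.37 (SE 0.439, limma adjusted p = 0.0826), with the lower values in Pim1-/- PBS, where 21.1% of tested genes separated downward. Without Pim1-/- PBS 2, the library close to WT PBS 1, Tnfsf9 (1.63, limma adjusted p = 0.0448) and Tnfrsf1b (-1.65, limma adjusted p = 0.0404) were called. With oxLDL the genotypes overlapped in all 3 genes, and the differences were 0.20 (SE 0.425) for Tnfsf9, -0.06 (SE 0.363) for Fas and -0.49 (SE 0.439) for Tnfrsf1b. Averaged over the treatments they were 0.85 (limma adjusted p = 0.0752) for Tnfsf9, 0.43 (limma adjusted p = 0.252) for Fas and -0.93 (limma adjusted p = 0.0655) for Tnfrsf1b. After median scaling that of Tnfrsf1b was -0.71 (limma adjusted p = 0.217) in PBS and -0.49 (limma adjusted p = 0.192) averaged. Without Pim1-/- PBS 2 the averaged difference of Tnfrsf1b was called (-1.07, limma adjusted p = 0.0303), and without WT PBS 1 that of Tnfsf9 (1.06, limma adjusted p = 0.0481).

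Tnf differed between Pim1-/- and WT cells by -0.26 (SE 0.345) in oxLDL and 0.31 (SE 0.345) in PBS, with overlapping libraries in both (limma adjusted p = 0.903 and 0.557). After median scaling the difference of Tnf in PBS was 0.90 (limma adjusted p = 0.0907). The scaled PBS libraries no longer overlapped, all Pim1-/- libraries lying above all WT libraries. The share of tested genes so separated after scaling was not counted. Tnfaip3 differed by -0.70 (SE 0.429) in oxLDL and -0.87 (SE 0.429) in PBS, and Tnip1 by -0.54 (SE 0.405) and -0.39 (SE 0.405). The differences in oxLDL and PBS were -0.79 and -0.52 (SE 0.466 each) for Tnfsf10, 0.27 and 0.74 (SE 0.498 each) for Tnfsf13b, and -0.22 and -0.34 (SE 0.402 each) for Tnfrsf1a. None of these passed, which does not show that the genotypes are alike. No member's response to oxLDL was called as different between the genotypes. By limma 1 of 12594 genes (0.00794%) was, and 381 had an unadjusted p under 0.05. The only member among those was Tnfsf9, whose rise was smaller in Pim1-/- cells by a difference of -1.30 (SE 0.602, limma adjusted p = 0.986).

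In the oxLDL libraries Tnfaip2 varied with Pim1, a relation noticed after its values were seen. In the PBS libraries it did not in TPM as deposited. Among the Pim1-/- oxLDL libraries, Pim1-/- oxLDL 1 was highest in both genes, with 178 TPM of Tnfaip2 and 47.8 TPM of Pim1. Among the WT oxLDL libraries, WT oxLDL 1 was highest in both, with 1387 TPM of Tnfaip2 and 365 TPM of Pim1. WT oxLDL 2 was lowest there in both, with 254 TPM of Tnfaip2 and 56.0 TPM of Pim1. In Pim1-/- PBS, Tnfaip2 stayed within 72.0 to 73.9 TPM while Pim1 spanned 10.2 to 30.6 TPM, and Pim1-/- PBS 3 was highest in Pim1 and lowest in Tnfaip2. In WT PBS, WT PBS 2 was lowest in Pim1 (68.5 TPM) and highest in Tnfaip2 (405 TPM). The order in Pim1-/- PBS turned on the scaling. After median scaling Pim1-/- PBS 3 was highest in both genes (Tnfaip2 96.2, Pim1 40.9) and Pim1-/- PBS 2 lowest in both (58.6 and 8.21). WT PBS 2 was still lowest in Pim1 and highest in Tnfaip2. Ranked by correlation with Tnfaip2 over the 12 libraries, Pim1 came first of the 9102 genes. The genotypes form separate groups, so the measure was also taken within each. Over the 6 Pim1-/- libraries Pearson's r was 0.783 (Spearman's rho = 0.486), with rank 69 of 9102, and without the 2 libraries farthest from the median of Pim1 it was 0.32, so it rests on those libraries. Over the 6 WT libraries r was 0.96 (rho = 0.829), with rank 7, and 0.709 without the 2 farthest. All libraries are scaled to 1 total, and no p is given, since the pair was chosen for its likeness. The next 4 genes by likeness to Tnfaip2 were Ddhd1 (r = 0.954), a phospholipase, Pcdh7 (0.948), a protocadherin, Trim14 (0.945), an adaptor of antiviral signalling, and Bcl3 (0.945), an atypical IkB protein.

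**Figure D4:**
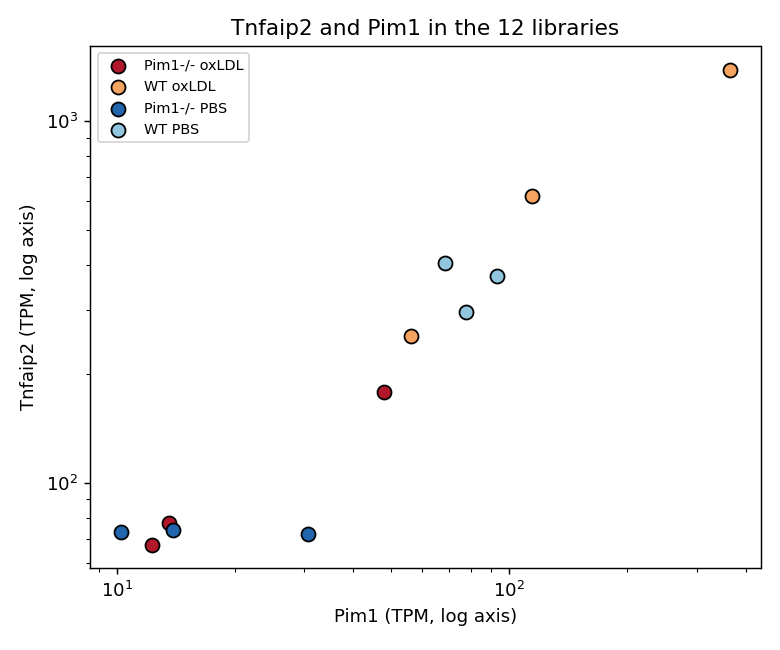
Tnfaip2 (vertical axis) against Pim1 (horizontal axis), both in TPM on log axes, with 1 point per library and colours for the 4 groups. All 6 Pim1-/- libraries lie at or below 178 TPM of Tnfaip2 and all 6 WT libraries at or above 254 TPM, and WT oxLDL 1 is highest on both axes.

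The rest of the pathway is given by list, against the 4.45% of all tested genes that rose and 7.8% that fell with oxLDL in Pim1-/- cells, and the 5.83% and 27% in WT cells. After median scaling 7.37% of tested genes rose in Pim1-/- cells and 13.4% in WT cells. In WT cells 2587 of 12594 genes were then called in either direction, 1686 of them higher. Of 14 other TNF superfamily ligands 9 were tested. In Pim1-/- cells 3 rose and none fell (median 1.23), and in WT cells 4 rose and 1 fell (median 0.88). After median scaling 4 rose and none fell in each genotype. Tnfsf15, which encodes the ligand TL1A, rose by 5.30 (SE 0.584) in Pim1-/- and 6.79 (SE 0.584) in WT cells. It stood at 103, 67.8 and 83.9 TPM in Pim1-/- oxLDL and 582, 107 and 150 TPM in WT oxLDL, against at most 2.52 TPM in any PBS library. Tnfsf13, which encodes the B cell factor APRIL, was the ligand that fell in WT cells, by 1.82 (SE 0.511, limma adjusted p = 0.0155), and median scaling ended that call (-0.82, limma adjusted p = 0.303).

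Of 25 other TNF receptor superfamily genes 21 were tested. In Pim1-/- cells 3 rose and 1 fell (median -0.36), and in WT cells 3 rose and 4 fell (median -0.42). After median scaling 4 rose and none fell in Pim1-/- cells, and 4 rose and 2 fell in WT cells. The 4 falls of 21 in WT cells are a smaller share than that of all tested genes. Cd40, the receptor through which T cells activate macrophages, stood at 651, 791 and 864 TPM in Pim1-/- oxLDL, against 2.74, 5.45 and 2.61 TPM in Pim1-/- PBS. In WT cells it stood at 786, 711 and 1455 TPM with oxLDL, against 2.81 and 3.08 TPM with PBS and a listed 0 in WT PBS 3. Its changes were 7.43 (SE 0.517, limma adjusted p = 4.7e-07) in Pim1-/- and 8.55 (SE 0.517, limma adjusted p = 7.04e-08) in WT cells, where the change in WT cells exceeded that of Tnf. The mouse decoy receptor gene Tnfrsf23 fell by 1.84 (SE 0.517, limma adjusted p = 0.0325) in Pim1-/- and 2.52 (SE 0.517, limma adjusted p = 0.00284) in WT cells, and median scaling ended the call in Pim1-/- cells (-1.30, limma adjusted p = 0.0738). Tnfrsf26, a related gene, fell by 2.82 (SE 0.497, limma adjusted p = 0.00106) in WT cells, and Tnfrsf11a, which encodes RANK, by 1.39 (SE 0.386, limma adjusted p = 0.0149). The Tnfrsf11a call ended under median scaling (-0.46, limma adjusted p = 0.356).

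Of 26 genes of receptor-proximal signalling, all tested, 7 rose and none fell in Pim1-/- cells (median 0.03), and 6 rose and 4 fell in WT cells (median -0.49). Traf1, an adaptor of TNFR2 and CD40, rose by 4.84 (SE 0.657) in Pim1-/- and 6.08 (SE 0.657) in WT cells. Cflar, which encodes the caspase-8 inhibitor c-FLIP, rose by 3.06 and 3.01 (SE 0.406 each), and Mlkl, the effector of necroptosis, by 3.56 and 2.77 (SE 0.562 each), in Pim1-/- and WT cells. The falls in WT cells included Otulin (-2.43), a deubiquitinase of linear chains, and the kinase Map3k7 (-2.22) and its partner Tab1 (-1.32). After median scaling 7 rose and none fell in Pim1-/- cells, and 8 rose and none fell in WT cells, and as deposited the 4 falls of 26 in WT cells are also a smaller share than that of all tested genes. In the remaining lists, Tnfaip8l3 rose by 2.83 (SE 0.502) in Pim1-/- and 2.93 (SE 0.502) in WT cells, the only rise in each genotype among 10 tested other TNFAIP and A20-partner genes, while 2 fell in each. After median scaling 1 rose and 1 fell in Pim1-/- cells, and 2 rose and none fell in WT cells. One of the falls was the ubiquitin ligase gene Itch (-2.15, SE 0.536, and -1.77, SE 0.536), whose call held under median scaling in Pim1-/- cells (-1.65, limma adjusted p = 0.0237) and ended in WT cells (limma adjusted p = 0.219).

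Genes that control Tnf mRNA or shedding (11, all tested) had 2 rises and no fall in Pim1-/- cells (median 0.38), and 3 rises and 1 fall in WT cells (median 0.17). After median scaling there were 5 rises in Pim1-/- cells and 4 in WT cells, and no fall. Zc3h12a, which encodes the RNase regnase-1, rose by 2.00 (SE 0.366) in Pim1-/- and 2.08 (SE 0.366) in WT cells. Rhbdf2, which encodes the iRhom2 protein that ADAM17 needs, rose by 2.01 and 1.90 (SE 0.475 each). Zfp36, which encodes tristetraprolin, a protein that binds AU-rich elements of the Tnf mRNA, rose in WT cells by 1.07 (SE 0.387, limma adjusted p = 0.0467). Its relative Zfp36l2 fell there by 2.41 (SE 0.704, limma adjusted p = 0.0189), a call that ended under median scaling (limma adjusted p = 0.258).

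The called genes of these 5 lists were also fitted without each library of the groups compared in turn. This alternative was chosen after the data were seen. Libraries of the other genotype, which share the model, were not left out for the calls with oxLDL. Of 19 calls with oxLDL in Pim1-/- cells 12 held whichever Pim1-/- library was left out. Of 29 in WT cells 17 held whichever WT library was left out. Among the genes named, the rises of Tnfsf15, Cd40, Traf1, Cflar, Mlkl, Tnfaip8l3 and Zc3h12a held in both genotypes. That of Rhbdf2 in Pim1-/- cells ended without Pim1-/- oxLDL 1 or Pim1-/- oxLDL 3, and that of Zfp36 in WT cells without any one of 5 libraries, all but WT oxLDL 2. The fall of Tnfsf13 in WT cells ended without WT PBS 1 or WT oxLDL 1, that of Tnfrsf11a without WT PBS 2 or WT oxLDL 2, those of Tab1 and Itch in WT cells without WT PBS 1, WT PBS 2, WT oxLDL 1 or WT oxLDL 2, and that of Zfp36l2 in WT cells without WT PBS 1, WT PBS 2, WT oxLDL 2 or WT oxLDL 3. In Pim1-/- cells the fall of Tnfrsf23 ended without any one of 5 libraries, all but Pim1-/- PBS 3, and that of Itch without Pim1-/- PBS 1, Pim1-/- PBS 2, Pim1-/- oxLDL 2 or Pim1-/- oxLDL 3. The rise of Tnfrsf9 ended without Pim1-/- PBS 2, Pim1-/- oxLDL 2 or Pim1-/- oxLDL 3 in Pim1-/- cells and without WT PBS 1 or WT oxLDL 1 in WT cells.

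**Figure D5:**
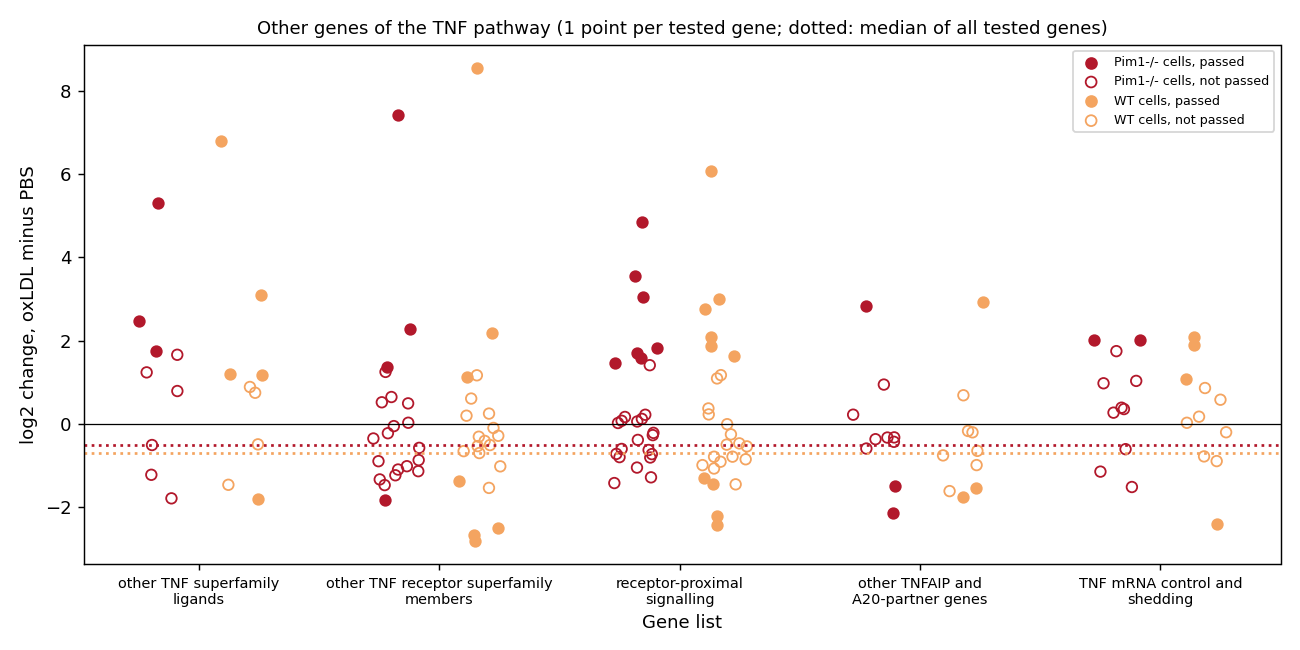
Log2 change with oxLDL against PBS (vertical axis) for the tested genes of 5 other lists of the TNF pathway, in Pim1-/- cells (left of each pair) and WT cells (right of each pair); filled points passed at an adjusted p under 0.05 and dotted lines are the median of all tested genes. The highest point is Cd40 in WT cells, at 8.55, and most points in the signalling list lie near the dotted lines.

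Loss of Pim1 in PBS called no gene of the 5 lists as higher and 5 as lower, named here after their values were seen. Of all tested genes 0.611% and 4.06% were called higher and lower. The calls were 1 of 21 receptor genes, 2 of 26 signalling genes and 2 of 11 genes of Tnf mRNA control or shedding. None of 9 ligands and none of 10 TNFAIP and A20-partner genes was called. The called genes were Zfp36l2 (-2.62), the kinase gene Mapkapk2 (-2.52), which acts on Tnf mRNA through tristetraprolin, the lymphocyte receptor Cd27 (-2.47), Otulin (-2.20) and Map3k7 (-2.16). After median scaling none of these was called, and 7 of 12594 genes were called. Each of the 5 calls ended without WT PBS 1, WT PBS 2, Pim1-/- PBS 1 or Pim1-/- PBS 3, and that of Zfp36l2 also without Pim1-/- PBS 2. Cd27 was highest in WT PBS 3, the library with the highest sum of T and NK cell markers. It stood at 0.581, 1.60 and 0.714 TPM in Pim1-/- PBS, against 4.70, 3.88 and 42.3 TPM in WT PBS, and without WT PBS 3 its difference was -1.46 (limma adjusted p = 0.0354). With oxLDL Mapkapk2 stood at 109, 60.9 and 63.9 TPM in Pim1-/- cells, against 595, 117 and 188 TPM in WT cells. In PBS it stood at 17.4, 30.9 and 19.1 TPM in Pim1-/- cells, against 193, 231 and 48.8 TPM in WT cells. Its libraries thus did not overlap within either treatment, a downward separation seen in 13% of tested genes in oxLDL and 21.1% in PBS. In oxLDL no gene of the 5 lists was called between genotypes. Averaged over the treatments, 8.21% of tested genes were called lower and 2.94% higher. Lower were 5 of 26 signalling genes, 2 of 10 TNFAIP and A20-partner genes and 5 of 11 genes of Tnf mRNA control or shedding. Higher were 1 of 9 ligands and 1 of those 11. After median scaling 1 signalling gene and 2 of the 11 were lower (3.53% of tested genes). Then 1 ligand, 1 TNFAIP or A20-partner gene and 1 of the 11 were higher (6.73%).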

How the data were processed

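Gene expression was measured by RNA-seq in 12 libraries of cultured mouse peritoneal macrophages, and the authors deposited TPM values for 24279 gene rows. Per the submitters' processing notes, Salmon, DESeq2 and mm10 were used; their versions, and the gene annotation, are not given in the sources used here. Groups and replicate numbers came from the sample titles. Genes with at least 1 TPM in at least 3 libraries (12594) were fitted as log2(TPM + 1) with limma 3.58.1 in R 4.3.3, in 1 model of the 4 group means (8 residual degrees of freedom) with a mean-variance trend, and p-values were adjusted by the Benjamini-Hochberg method over all these genes. The fit was tested on simulated data. Alternatives were a pseudocount of 0.1, no filter, a filter at 5 TPM, median scaling, quantile normalization and rescaling without 2 ribosomal RNA rows. Others were the replicate number as a block, leaving out each library of the groups compared, and leaving out WT PBS 3 with WT oxLDL 2. For the other lists, leaving out each library of the groups compared was added after the data were seen. The members, lists, markers and tests were chosen with earlier results of these data known. All 10 members are named; from each other list, up to 3 genes per direction with the largest called change for oxLDL in WT cells and a mean of at least 5 TPM. Outside that rule, and after their values were seen, Tnfrsf9 and Fasl are named as partners of members, and the list genes called between genotypes in PBS are named; the genes most like Tnf and Tnfaip2 are the first by correlation. Figures were drawn with matplotlib 3.10.9 in Python 3.11.15.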

Additional observations from a re-analysis of the deposited data

How the results depend on the processing

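Of 954 values of single genes under an alternative, 896 kept their direction and their side of the threshold, 17 came to pass it, 8 no longer passed and 33 changed sign, none of which passed in either setting. The number of members called stayed at 7 for oxLDL in Pim1-/- cells and at 0 for the difference of the responses in every alternative, and was 6 to 9 for oxLDL in WT cells. For Pim1 loss in PBS (1 called) it was 0 with a pseudocount of 0.1, no filter, median scaling or rescaling without ribosomal RNA, 2 with the filter at 5 TPM, 3 with quantile normalization, and 0 to 3 without single libraries. For Pim1 loss in oxLDL (0 called) it was 1 without WT PBS 3 and WT oxLDL 2, and 0 to 1 without single libraries. For the average over treatments (1 called) it was 3 with median scaling, 2 with quantile normalization, 2 without WT PBS 3 and WT oxLDL 2, and 1 to 2 without single libraries. With the replicate number as a block (the replicate block) the counts were 7 and 6 for oxLDL in Pim1-/- and WT cells, 0 and 1 for Pim1 loss in oxLDL and PBS, 0 for the difference and 1 for the average, the same as without it, while the calls among all genes fell to 321, against 588 without the block, for Pim1 loss in PBS, and to 877, against 1404, for the average. Same-numbered libraries deviated together, with a correlation over 0.1, in only 5 of 18 pairs (range -0.521 to 0.165), so the numbers were not taken as pairs. Sign changes under median scaling were Tnfrsf1a in Pim1 loss (0.31 in PBS, 0.0068 in oxLDL, 0.16 averaged), Tnip1 in PBS (0.26), Fas in oxLDL (0.16; 0.066 with quantile normalization), and the differences of responses of Tnfrsf1a (-0.31; -0.21 with quantile normalization, -0.13 without ribosomal RNA) and Tnfaip3 (-0.25, -0.29 and -0.079). Without WT PBS 3 and WT oxLDL 2, Tnfsf13b changed by -0.022 with oxLDL in WT cells, and the differences of responses were 0.11 for Tnfsf13b and -0.0054 for Tnfrsf1a. Without single libraries the ranges that crossed 0 were -0.015 to 0.68 for Tnfaip2 with oxLDL in Pim1-/- cells and -0.11 to 0.46 for Tnfrsf1a with oxLDL in WT cells. For Pim1 loss in oxLDL they were -0.13 to 0.62 for Tnfsf13b, -0.46 to 0.10 for Tnfrsf1a and -0.17 to 0.13 for Fas, in PBS -0.66 to 2.8e-05 for Tnip1, and averaged -0.066 to 0.12 for Tnf. For the difference of responses they were -0.57 to 0.13 for Tnfsf10, -0.89 to 0.063 for Tnfsf13b, -0.19 to 0.44 for Tnfrsf1a, -0.97 to 0.25 for Tnfaip2, -0.14 to 0.56 for Tnfaip3 and -0.54 to 0.12 for Tnip1. The cause of these changes was not tested. TPM keeps no depth, so no counting error or detection limit could be set for genes listed at 0.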
